A study of Mus musculus with 6 samples.

Results

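The clustered protocadherin locus of the mouse was taken as chromosome 18 from 36900000 to 38100000 in the mm9 build, with 1 Mb on either side as flank. Its members were the GATC fragments with their middle in this span, chosen by position and not by signal. They numbered 3338 of the 6581229 fragments in each map, with 726 in the alpha cluster (37090000 to 37350000), 800 in the beta cluster (37400000 to 37700000) and 583 in the gamma cluster (37800000 to 38000000). The flanks held 2413 fragments upstream and 2443 downstream. The edges of the clusters are rounded positions, and no mm9 gene annotation was used, so signal is given for clusters and bins and not for single genes.

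DamID was used to map where chromatin touches the nuclear lamina in embryonic fibroblasts of C57BL/6 mice, labelled wild type. A Dam methyltransferase fused to a lamin marks GATC sites that touch the lamina, and Dam alone in parallel cells gives the background. All cells carried lentiviral shRNA and were selected with puromycin before they were transduced with Dam or the fusion. The 3 maps were LmnA RNAi and LmnC RNAi, both made with Dam-LmnB1, and LmnB1 RNAi, made with Dam-LmnA. Each came from 1 Dam-only and 1 fusion library, so there are no replicate maps, the text holds no p-values, and every difference is one between single library pairs. Only LmnA and LmnC shRNA appear in the treatment protocol, and the sample descriptions supply the LmnB1 target. No map of cells without shRNA was analysed here, and RNA was not measured, so neither the depletion nor the fibroblast identity was checked against expression.

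Clustered protocadherins are cadherin-type adhesion proteins of the neuronal surface. Each neuron uses a small, largely random choice of them, and the combination lets its branches recognise and avoid each other. In the alpha and gamma clusters every variable exon has its own promoter and is spliced to constant exons at the end of the cluster, while each beta gene stands alone. C-type exons close the alpha and gamma clusters and are used more uniformly among neurons. RefSeq lists 14 alpha, 22 beta and 22 gamma genes or exons here. On its GRCm38 assembly, from which only names and order were taken, alpha runs from Pcdha1 to Pcdhac1 and Pcdhac2, beta from Pcdhb1 to Pcdhb22, and gamma from Pcdhga1 to Pcdhgc3, Pcdhgc4 and Pcdhgc5. Before alpha come broadly used genes such as Hars, a histidyl-tRNA synthetase, and Zmat2. Taf7, a subunit of the general transcription factor TFIID, and Slc25a2, a mitochondrial carrier, stand between beta and gamma. Diaph1, an actin regulator, and Hdac3, a histone deacetylase, follow gamma.

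The alpha and beta clusters had lamina signal above 0 in all 3 maps and the gamma cluster below 0, and lamina-associated domains (LADs), as the authors called them, covered most of alpha and all of beta but none of gamma. Signal is the log2 ratio of fusion to Dam-only reads, averaged with fragments weighted by length. The alpha cluster averaged 2.34 ± 0.22 in the LmnA RNAi map, 1.32 ± 0.23 in the LmnC RNAi map and 2.03 ± 0.20 in the LmnB1 RNAi map (SE over 726 fragments). The beta cluster averaged 2.41 ± 0.17, 1.78 ± 0.16 and 1.77 ± 0.16 in the same order (SE over 800 fragments). The gamma cluster averaged -2.33 ± 0.25, -2.93 ± 0.26 and -2.31 ± 0.23 (SE over 583 fragments). Every map thus placed gamma below both other clusters, by 4.66, 4.25 and 4.35 below alpha and by 4.74, 4.71 and 4.09 below beta. These errors describe variation along the sequence within 1 pair of libraries and are not replicate errors.

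The sign of each cluster did not rest on fragments with 0 reads in 1 library. Such fragments take values near 17 or beyond in either direction, because a very small number was added before the log. Without them alpha averaged 0.65, 0.50 and 0.55 for LmnA, LmnC and LmnB1 RNAi, beta 1.15, 0.91 and 0.75, and gamma -1.07, -1.21 and -1.06. Alpha was then below beta in every map, by 0.50, 0.41 and 0.19. Alpha holds a stretch outside LADs, described below, and beta does not, but whether this bears on their order was not tested. The LAD that took in most of alpha then averaged 1.08, 0.94 and 0.84 over the sequence it held in all maps. The LAD that took in beta averaged 1.10, 0.91 and 0.74. Both LADs also hold sequence outside the clusters, so these are not means of alpha and beta. Over all fragments alpha lay above beta in the LmnB1 RNAi map (2.03 against 1.77, a difference of 0.26 ± 0.26, SE over fragments). Odd-numbered and even-numbered fragments gave alpha 2.66 and 2.01 in the LmnA RNAi map, 1.17 and 1.47 in the LmnC RNAi map, and 2.03 and 2.04 in the LmnB1 RNAi map. The 2 sets of alpha fragments thus differed from each other by far less than alpha differed from gamma. They alternate along the same sequence and come from the same libraries, so this does not show how alpha would repeat in other libraries.

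**Figure D1:**
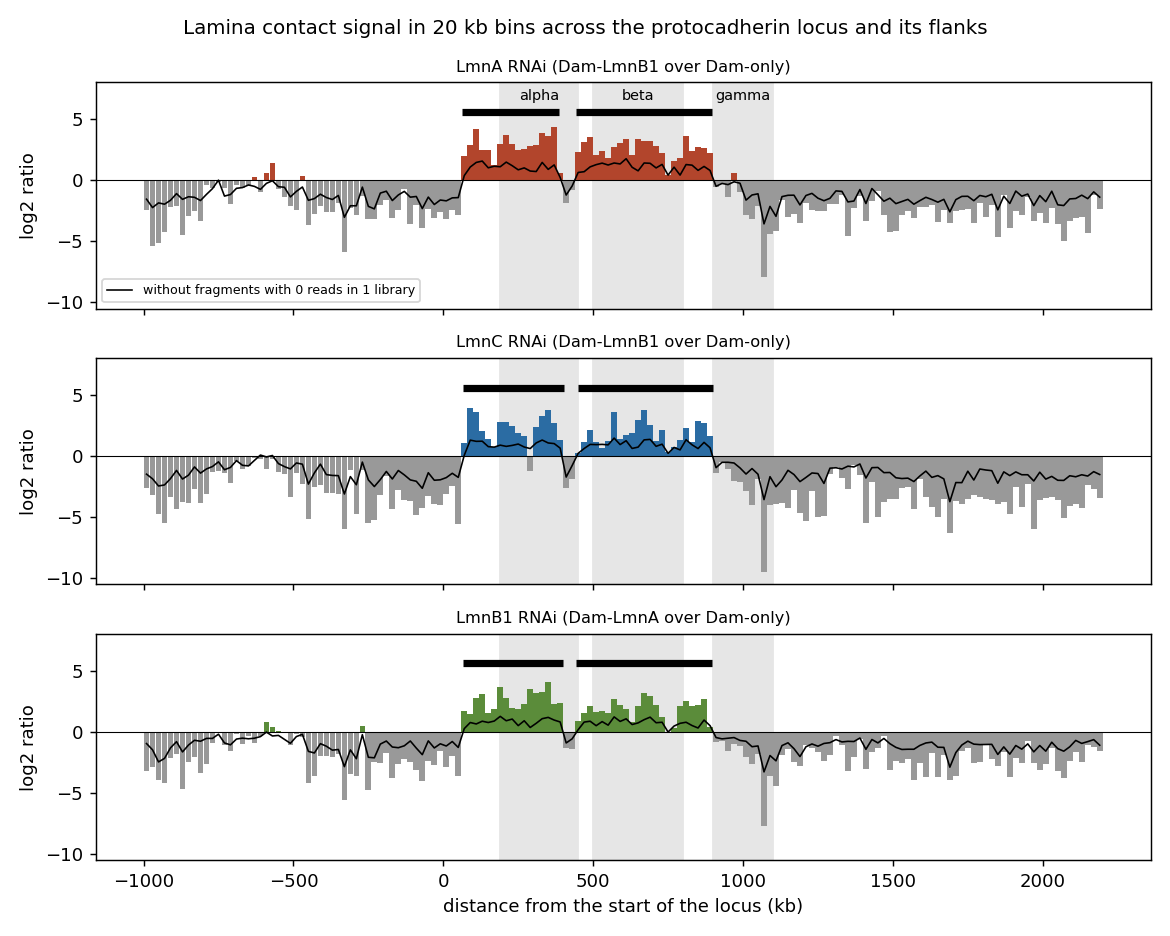
Log2 ratio of fusion over Dam-only reads in 20 kb bins (vertical axis) against distance from the start of the locus in kb (horizontal axis), 1 panel per map, with coloured bars above 0, grey bars below 0, black horizontal bars for LADs, a black line for the signal without fragments with 0 reads in 1 library, and grey shading for the alpha, beta and gamma clusters. LADs cover most of alpha and all of beta in each map, and gamma lies below 0 in all but 1 bin of the LmnA RNAi map, with its lowest bin at -7.94, -9.49 and -7.74 for LmnA, LmnC and LmnB1 RNAi.

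**Figure D2:**
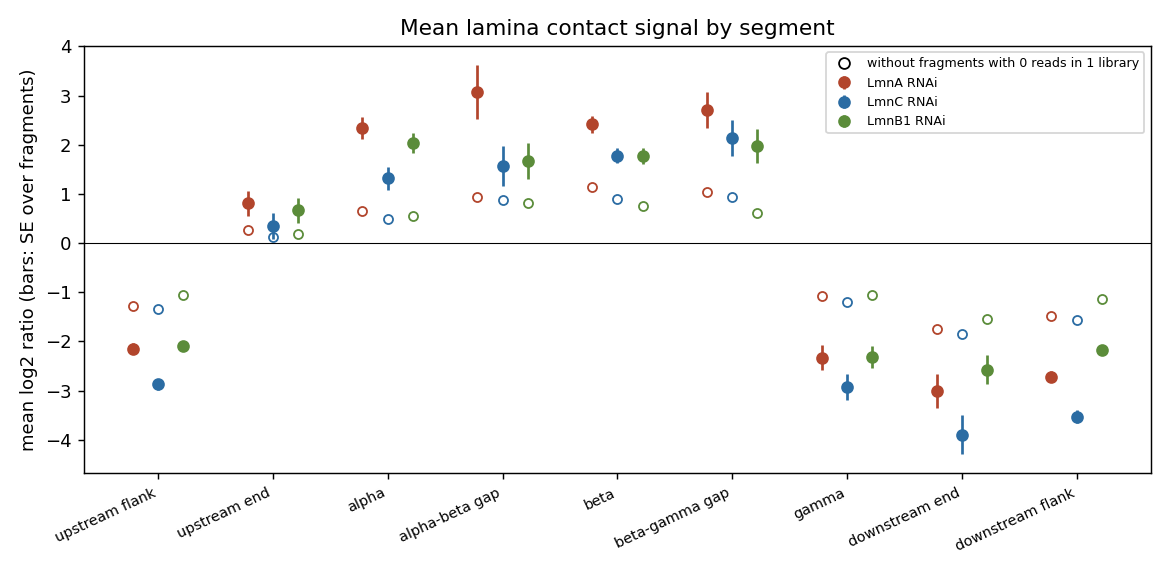
Mean log2 ratio (vertical axis) of each segment of the locus and of both flanks (horizontal axis) for the 3 maps, with filled points over all fragments, bars for the SE over fragments, and open points without fragments with 0 reads in 1 library. Alpha, beta and the sequence between them lie above 0 and gamma, the downstream end and the flanks below it in every map.

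Counts of fragments also put gamma below alpha and beta in each map, and put alpha below beta in each, which in the LmnB1 RNAi map is the opposite of the order of their mean log2 ratios. Among fragments with unequal reads, those with more fusion than Dam-only reads made up 81.9% of alpha in the LmnA RNAi map (95% Clopper-Pearson interval 78.3 to 85.1), 68.6% in the LmnC RNAi map (64.3 to 72.6) and 76.6% in the LmnB1 RNAi map (72.7 to 80.3). In beta they made up 89.9% (87.1 to 92.3), 79.9% (76.3 to 83.1) and 83.0% (79.6 to 86.0). In gamma they made up 28.6% (24.1 to 33.4), 14.7% (11.4 to 18.5) and 22.3% (18.4 to 26.7). The intervals of gamma lay apart from those of alpha and beta in each map. They cover counting error only, and reads amplified by PCR are not independent molecules. Reads were compared as counted, without scaling the libraries of a map to each other. Over all chromosomes the shares were 64.9%, 48.0% and 56.5%, so alpha and beta stood above the level of their map and gamma below it. Alpha includes a stretch outside LADs, and whether it bears on the order of alpha and beta was not tested. Over the sequence it held in all maps, the LAD that took in most of alpha had 88.8%, 81.5% and 86.0%. The LAD that took in beta had 88.6%, 79.2% and 83.9%, which was not higher. Both LADs also hold sequence outside the clusters.

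Reads of single-library fragments showed the same split. In alpha they were 548 fusion and 52 Dam-only reads in the LmnA RNAi map, 322 and 139 in the LmnC RNAi map, and 356 and 97 in the LmnB1 RNAi map. In beta they were 534 and 35, 392 and 74, and 403 and 64. In gamma the balance was turned, with 48 fusion and 598 Dam-only reads in the LmnA RNAi map, 49 and 718 in the LmnC RNAi map, and 65 and 490 in the LmnB1 RNAi map. The 20 kb bin from 37960001 to 37980000 held 369, 367 and 262 of these Dam-only reads. In the first 100 kb of gamma the reads were 35 fusion and 47 Dam-only for LmnA RNAi, 35 and 108 for LmnC RNAi, and 37 and 79 for LmnB1 RNAi. All chromosomes together held 3031280 fusion and 1442259 Dam-only reads of this kind for LmnA RNAi, 1914499 and 2759806 for LmnC RNAi, and 2035115 and 1861565 for LmnB1 RNAi.

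**Figure D3:**
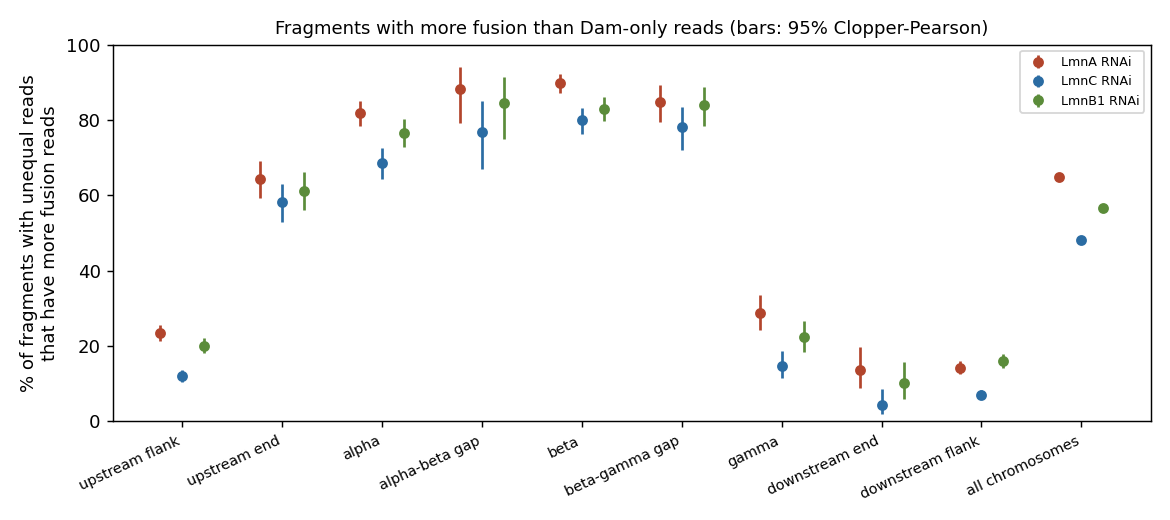
Share of fragments with more fusion than Dam-only reads among fragments with unequal reads, in percent (vertical axis), for each segment, both flanks and all chromosomes (horizontal axis), with 95% Clopper-Pearson intervals as bars. Beta reaches 89.9%, 79.9% and 83.0% for LmnA, LmnC and LmnB1 RNAi, against 28.6%, 14.7% and 22.3% in gamma.

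The locus held 2 deposited LADs in each map, and its flanks held none. The first LAD ran from 36962843 to 37285246 in the LmnA RNAi map (322 kb), from 36964342 to 37301622 in the LmnC RNAi map (337 kb) and from 36964595 to 37300125 in the LmnB1 RNAi map (336 kb). It thus began over 100 kb before the alpha cluster and took in most of it. The second LAD ran from 37341322 to 37797653 (456 kb), from 37350199 to 37799253 (449 kb) and from 37341281 to 37796435 (455 kb) in the same order. It took in all of beta and nearly all sequence up to gamma, and, in the LmnA and LmnB1 RNAi maps, the end of alpha. LADs covered 64.9%, 65.5% and 65.9% of the locus for LmnA, LmnC and LmnB1 RNAi. By cluster they covered 78.4%, 81.4% and 84.2% of alpha, 100% of beta in each map and 0% of gamma in each map.

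In bins of 50 kb, the LAD state of the locus was the same in the 3 maps, each of cells with shRNA. Of 24 bins of 50 kb, 16 were at least 50% in LADs in each map, where 67.9%, 58.9% and 59.9% of all 51168 bins were for LmnA, LmnC and LmnB1 RNAi. All 24 bins had the same state in the 3 maps, beside 84.8% of all bins. The LAD bins of the locus had median signals of 2.68, 1.97 and 2.30, beside 2.11, 1.55 and 1.74 in all LAD bins of the same maps. LAD lists were made from these same libraries, so a higher signal inside them is built in.

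The LADs of the locus stood far from others on the chromosome. The nearest LAD upstream ended 2.59 Mb before the first LAD in the LmnA RNAi map, 2.59 Mb in the LmnC RNAi map and 3.44 Mb in the LmnB1 RNAi map. The nearest downstream began 2.63, 2.64 and 2.64 Mb after the second LAD. The median distance between neighbouring LADs was 205 kb in the LmnA RNAi map, 242 kb in the LmnC RNAi map and 261 kb in the LmnB1 RNAi map, and between 95.4% and 98.0% of such distances were shorter than those beside the locus. With LADs joined across gaps under 100 kb, 9 of 1213 groups in the LmnA RNAi map, 10 of 1284 in the LmnC RNAi map and 17 of 1264 in the LmnB1 RNAi map had at least 2 Mb free of LADs on both sides (0.742%, 0.779% and 1.34%). The protocadherin pair was one of these in each map.

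The flanks held signal well below the locus. They averaged -2.43 ± 0.08 in the LmnA RNAi map, -3.20 ± 0.09 in the LmnC RNAi map and -2.14 ± 0.07 in the LmnB1 RNAi map (SE over 4856 fragments). The locus as a whole averaged 0.95 ± 0.10, 0.22 ± 0.10 and 0.62 ± 0.09, which was 3.39, 3.42 and 2.76 above the flanks and 1.66, 1.58 and 1.21 above them without single-library fragments. The rest of chromosome 18 averaged 0.76, -0.33 and 0.25, so the locus stood 0.19, 0.55 and 0.38 above it. Among windows of 1200 kb along all chromosomes, 49.2%, 56.0% and 56.1% lay below the locus. As a whole the locus was thus near the middle of each map, with alpha and beta above the middle and gamma below it. Of windows as long as alpha, 73.9%, 67.5% and 79.8% lay below it, of windows as long as beta 77.4%, 78.8% and 72.4%, and of windows as long as gamma 10.6%, 15.9% and 10.5%.

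Individual bins showed how even each cluster was. Of the 3 clusters, beta spanned the narrowest range in every map, with all 15 of its 20 kb bins above 0 in the LmnA RNAi map (0.44 to 3.40, median 2.42) and in the LmnC RNAi map (0.33 to 3.79, median 1.40), and 14 in the LmnB1 RNAi map (-0.04 to 3.14, median 1.85). The weakest beta bin was the same in each map, from 37640001 to 37660000. Of the 12 bins wholly inside alpha, 10 were above 0 in the LmnA RNAi map, 9 in the LmnC RNAi map and 10 in the LmnB1 RNAi map. Of the 10 gamma bins, 1 was above 0 in the LmnA RNAi map and none in the other two maps. That gamma bin, from 37860001 to 37880000, had 0.59 in the LmnA RNAi map and -0.13 without single-library fragments. The upstream flank had 4 of 50 bins above 0 in the LmnA RNAi map and 4 in the LmnB1 RNAi map, and none in the LmnC RNAi map, and the downstream flank had none in any map. Without single-library fragments the upstream counts were 0, 0 and 2 for LmnA, LmnB1 and LmnC RNAi.

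Of the 3 highest bins of each map, 8 of 9 lay in the first LAD, but without single-library fragments the ranking changed and 3 of 9 did. In the LmnA RNAi map they were 37260001 to 37280000 (4.31 ± 1.05), 37000001 to 37020000 (4.20 ± 0.71) and 37220001 to 37240000 (3.85 ± 0.82). In the LmnC RNAi map they were 36980001 to 37000000 (3.91 ± 0.77), 37240001 to 37260000 (3.80 ± 0.82) and, in beta, 37560001 to 37580000 (3.79 ± 0.83). In the LmnB1 RNAi map they were 37240001 to 37260000 (4.12 ± 0.84), 37080001 to 37100000 (3.67 ± 0.89) and 37180001 to 37200000 (3.47 ± 0.98). The errors are SE over the fragments of a bin, and they leave the order of these bins unsettled. Without single-library fragments these bins had 1.25, 1.45 and 1.45 in the LmnA RNAi map, 1.30, 1.07 and 1.32 in the LmnC RNAi map, and 1.18, 1.27 and 0.36 in the LmnB1 RNAi map. The highest bins were then 37500001 to 37520000 (1.75), in beta, for LmnA RNAi, 37460001 to 37480000 (1.46), in beta, for LmnC RNAi, and 37080001 to 37100000 (1.27), at the start of alpha, for LmnB1 RNAi.

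A short stretch outside LADs lay near the end of the alpha cluster, and in the LmnC RNAi map it ran to the end of the cluster. The first LAD stopped at 37285246, 37301622 and 37300125, and the second began at 37341322, 37350199 and 37341281 for LmnA, LmnC and LmnB1 RNAi, which left gaps of 56.1, 48.6 and 41.2 kb. The sequence outside LADs in all maps, from 37301622 to 37341281, averaged -1.36 ± 0.30, -2.33 ± 0.46 and -1.52 ± 0.32 (SE over 95 fragments). The first LAD averaged 2.97, 2.20 and 2.63 over the sequence it held in all maps, and the second 2.58, 1.84 and 1.84. The gap was lower than the first LAD by 4.33, 4.54 and 4.15, and by 1.95, 2.16 and 1.61 without single-library fragments. Its mean stood above that of the flanks by 1.07 ± 0.31, 0.87 ± 0.47 and 0.61 ± 0.32 (SE over fragments). Without single-library fragments the differences were 0.51, 0.23 and 0.33. As deposited, the 20 kb bins of the flanks had an SD of 1.32, 1.43 and 1.28, which was larger than the difference in each map. These stretches were drawn from the LAD lists of the same maps, so a lower signal in the gap is built in and is given as a description.

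Each of the 3 maps had this gap. Gaps under 60 kb that overlapped a gap of both other maps made up 56.9% of 299 in the LmnA RNAi map, 20.1% of 279 in the LmnC RNAi map and 26.1% of 299 in the LmnB1 RNAi map, and the alpha gap was among them in each. Its share of fragments with more fusion reads was 37.8% (26.8 to 49.9) in the LmnA RNAi map, 16.3% (9.20 to 25.8) in the LmnC RNAi map and 23.6% (14.4 to 35.09) in the LmnB1 RNAi map. These were shares of 74, 86 and 72 fragments with unequal reads, and all chromosomes had 64.9%, 48.0% and 56.5%. In 5 kb bins, picked after their values were seen, the gap was uneven. From 37305001 to 37310000 the signal was -3.13, -2.93 and -2.04, from 37325001 to 37330000 it was 0.07, -0.23 and 0.16, and from 37335001 to 37340000 it was -2.61, -3.09 and -3.18. As deposited, the middle bin of these was thus the highest in each map, with 16 fragments. Without single-library fragments it had -0.22, 0.03 and -0.11. In the LmnA RNAi map the 5 kb before it then had a higher value, 0.34, so the place of the rise is not settled. In the gene order the last members of alpha are the C-type exons Pcdhac1 and Pcdhac2, but their mm9 positions were not used, so they were not placed against the gap.

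The outer LAD borders agreed between maps within a few kb, and the inner ones less. The start of the first LAD spread over 1.75 kb among the 3 maps and the end of the second LAD over 2.82 kb. The end of the first LAD spread over 16.4 kb, where the LmnA RNAi map stopped first, and the start of the second over 8.92 kb, where the LmnC RNAi map began last. Borders of the locus lay within 5 kb of each other in 2 of 4 cases between LmnA and LmnC RNAi, 3 of 4 between LmnA and LmnB1 RNAi and 3 of 4 between LmnC and LmnB1 RNAi. Over all borders this held for 21.9% of 3536, 20.1% of 3536 and 23.4% of 3614, with median distances of 29.6, 37.7 and 21.5 kb.

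Signal changed over a short distance at these borders. At the start of the first LAD, the 20 kb inside averaged 2.59, 2.20 and 2.23 for LmnA, LmnC and LmnB1 RNAi, against -1.49, -3.82 and -2.03 in the 20 kb outside. These steps were 4.08, 6.02 and 4.25, and 2.05, 2.38 and 1.74 without single-library fragments. At the end of the second LAD, just before gamma, the 20 kb inside averaged 2.35, 1.69 and 1.66, against -0.33, -1.37 and -1.30 outside. These steps were 2.68, 3.06 and 2.96, and 1.12, 1.59 and 1.43 without single-library fragments. At the start of the second LAD the steps were 2.96, 2.73 and 1.94, and 0.96, 2.16 and 0.91 without such fragments. At the end of the first LAD the step in the LmnA RNAi map was 3.32 over all fragments but 0.33 without single-library fragments, where LmnC and LmnB1 RNAi kept 2.57 and 1.72. The size of that step in the LmnA RNAi map therefore rests mostly on single-library fragments. Outside that border, the LmnA RNAi map averaged 0.36 over the first 10 kb and -0.05 over the next. From 20 to 30 kb it averaged -3.12. Without single-library fragments these values were 0.82, -0.36 and -1.80, so part of the fall lay beyond the 20 kb compared. The borders were called on these same libraries, so a step at them is built in.

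**Figure D4:**
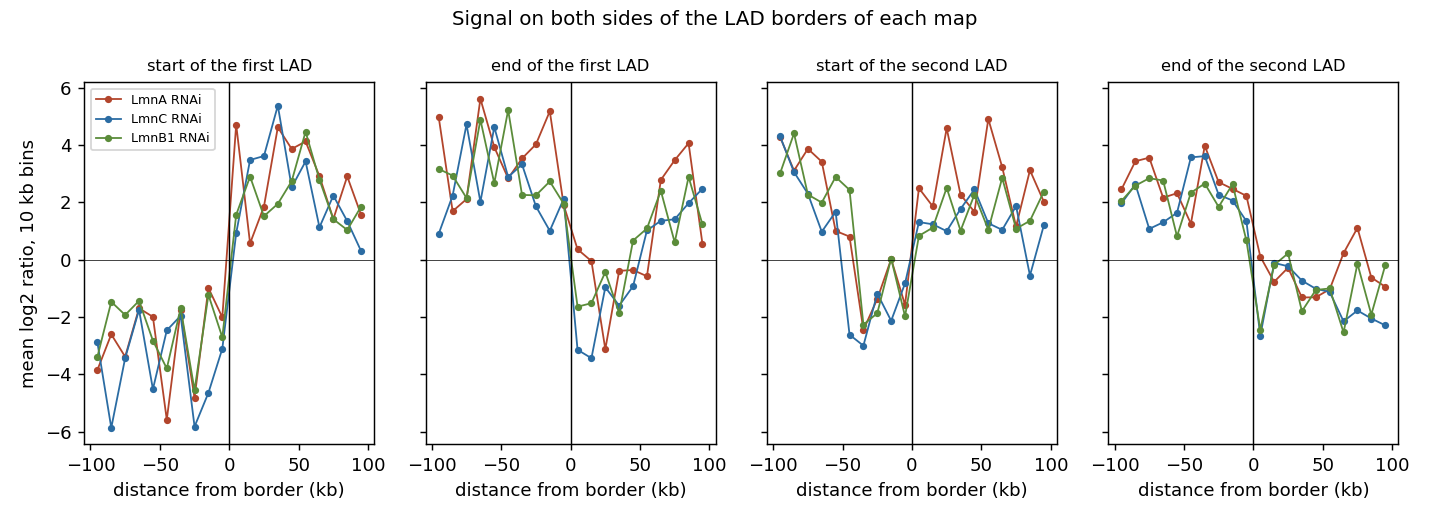
Mean log2 ratio in 10 kb bins (vertical axis) against distance from each LAD border in kb (horizontal axis), for the start and end of both LADs, with each map aligned to its own border at 0. In windows of 20 kb the inside is higher than the outside at every border, and signal steps by 4.08, 6.02 and 4.25 at the start of the first LAD for LmnA, LmnC and LmnB1 RNAi.

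The gamma cluster itself had a lower mean in its second 100 kb than in its first, a split made after the values were seen. Its first 100 kb, from 37800000 to 37900000, averaged -0.54 ± 0.27 in the LmnA RNAi map, -1.42 ± 0.29 in the LmnC RNAi map and -1.06 ± 0.24 in the LmnB1 RNAi map (SE over 275 fragments). Its second 100 kb, from 37900000 to 38000000, averaged -4.09 ± 0.42, -4.42 ± 0.44 and -3.55 ± 0.39 (SE over 308 fragments). Without single-library fragments these were -0.30, -0.71 and -0.54 in the first 100 kb and -1.89, -1.75 and -1.63 in the second. The second 100 kb was uneven and holds the lowest 20 kb bin of the locus, described below. As deposited, its other 20 kb bins ran from -4.42 to -2.13 in the LmnA RNAi map. They ran from -4.03 to -1.90 in the LmnC RNAi map and from -3.60 to -1.80 in the LmnB1 RNAi map. In the first 100 kb, fragments with more fusion reads made up 48.3% in the LmnA RNAi map (40.8 to 55.9), 23.4% in the LmnC RNAi map (17.5 to 30.2) and 35.7% in the LmnB1 RNAi map (28.8 to 43.1). In the second they made up 10.9% (6.99 to 16.1), 7.34% (4.25 to 11.6) and 11.3% (7.46 to 16.2), where all chromosomes had 64.9%, 48.0% and 56.5%. The start of gamma thus lay between the LAD and the flanks, which had -2.43, -3.20 and -2.14.

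The lowest signal of the locus was a single 20 kb bin in the second 100 kb of gamma, from 37960001 to 37980000. It had -7.94 ± 1.02 in the LmnA RNAi map, -9.49 ± 1.23 in the LmnC RNAi map and -7.74 ± 0.99 in the LmnB1 RNAi map (SE over 72 fragments). Of 127907 bins of 20 kb on all chromosomes, 1 was lower in the LmnA RNAi map, 3 in the LmnC RNAi map and 2 in the LmnB1 RNAi map, and on chromosome 18 none of 4381 was lower in any map. Without single-library fragments the bin had -3.58, -3.57 and -3.27, and 50, 113 and 79 bins were lower. Its rank describes these libraries. The next lowest bins were 37980001 to 38000000 (-4.42) and 38000001 to 38020000 (-4.13) in the LmnA RNAi map, and the same pair had -3.60 and -4.41 in the LmnB1 RNAi map. In the LmnC RNAi map they were 36940001 to 36960000 (-5.54), just before the first LAD, and 38080001 to 38100000 (-4.65).

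Every fragment of that bin with unequal reads leaned to Dam alone. In the LmnA RNAi map 0 fragments had more fusion reads and 54 had more Dam-only reads, in the LmnC RNAi map 0 and 64, and in the LmnB1 RNAi map 0 and 66. The others, 18, 8 and 6, had no reads or equal reads. Dam-only fragments numbered 33, 43 and 40 and held 369, 367 and 262 reads, where flank bins had medians of 22, 37 and 23.5 such reads and all bins 5, 8 and 6. As many Dam-only reads were found in 12, 71 and 60 bins in all. In 5 kb bins the lowest values were -12.2, -10.1 and -9.71 from 37965001 to 37970000 and -9.27, -14.4 and -11.7 from 37975001 to 37980000. Without this bin gamma averaged -1.71, -2.21 and -1.72. Dam alone methylates accessible chromatin anywhere in the nucleus, so a low ratio joins absence from the lamina and access to Dam, which cannot be told apart here.

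Differences between maps in the locus were smaller than its internal contrast and, as deposited, had the sign of the difference over all chromosomes. In the LmnA RNAi map the locus averaged 0.95, against 0.22 in the LmnC RNAi map, which used the same fusion, a difference of 0.73 ± 0.12 (SE over fragments). The flanks differed by 0.76 and all chromosomes by 1.00 in the same direction. The median 100 kb bin was 1.30, 0.15 and 0.63 for LmnA, LmnC and LmnB1 RNAi. Centred on it, the locus lay below in the LmnA RNAi map by 0.42, and without single-library fragments it lay above by 0.14, so the sign depended on the scaling. In the same settings all chromosomes had -0.15 and 0.28, and the flanks -0.39 and 0.07. In 50 kb bins, LmnA RNAi exceeded LmnC RNAi by over 1 in 7 of 24 bins (29.2%), where 47.4% of all bins did, and the reverse held in 0 bins, where 0.59% of all did. After centring these were 1 and 2 bins, where 9.29% and 13.6% of all bins passed, and without single-library fragments 0 and 0, where 2.52% and 0.00391% did.

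The largest difference between the LmnA and LmnC RNAi maps in the locus was in a bin that held, among other fragments read with Dam alone, 1 long one. The bin from 37150001 to 37200000, in alpha, had 2.72 in the LmnA RNAi map and 0.59 in the LmnC RNAi map, a difference of 2.13, and 0.18 without single-library fragments. Within it, the 20 kb from 37180001 to 37200000 had -1.26 ± 1.70 in the LmnC RNAi map. That fragment, of 1673 bp and at -19.6, lay there, and without it the 20 kb averaged 0.42. The LmnA RNAi map had 2.82 ± 0.95 there over all fragments, so the LmnC RNAi map stayed below it. In the LmnC RNAi map, 3 more Dam-only fragments lay from 37190001 to 37195000. The difference of the 50 kb bin without the long fragment alone was not computed. The same bin gave the largest deficit of LmnC RNAi against LmnB1 RNAi (0.59 against 2.67). The next largest differences between LmnA and LmnC RNAi were 1.50 from 37350001 to 37400000 (3.07 against 1.57) and 1.41 from 37850001 to 37900000 (-0.32 against -1.72), or 0.06 and 0.46 without single-library fragments. The smallest were -0.02 from 37750001 to 37800000 (2.52 against 2.54), 0.03 from 37950001 to 38000000 (-5.58 against -5.61) and 0.19 from 37250001 to 37300000 (2.65 against 2.45).

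The LmnB1 RNAi map differs from the others in fusion as well as target, which cannot be told apart. LmnA RNAi lay above LmnB1 RNAi by 0.33 ± 0.11 over the locus (0.95 against 0.62), with 0.30 in alpha, 0.64 in beta and -0.01 in gamma. Centred, the sign turned, to -0.34 over the locus and -0.37 in alpha, and without single-library fragments the locus difference was 0.16. All chromosomes had 0.46 as deposited, -0.21 centred and 0.16 without single-library fragments, and the flanks -0.30, -0.97 and -0.29. By over 1, LmnA RNAi was higher in 1 of 24 bins (25.7% of all bins) and lower in 0 (4.21% of all). After centring these were 0 and 3 bins (7.47% and 16% of all), and without single-library fragments 0 and 0 (0.735% and 0.0489% of all). Its largest difference was 1.40 from 37350001 to 37400000 (3.07 against 1.67), followed by 0.92 from 37500001 to 37550000 (2.84 against 1.91) and 0.89 from 37750001 to 37800000 (2.52 against 1.63). Its smallest were -0.98 from 38050001 to 38100000 (-3.05 against -2.08), -0.74 from 37950001 to 38000000 (-5.58 against -4.84) and -0.42 from 37050001 to 37100000 (2.15 against 2.57). Without single-library fragments these 6 differences were 0.12, 0.51, 0.21, -0.05, -0.24 and 0.05. LmnC RNAi lay below LmnB1 RNAi by 0.41 ± 0.11 over the locus (0.22 against 0.62), with -0.71 in alpha, 0.01 in beta and -0.62 in gamma. This sign turned too, to 0.076 over the locus when centred and to 0.012 without single-library fragments, where all chromosomes had -0.055 and -0.11. By over 1, LmnC RNAi was higher in 0 of 24 bins (2.08% of all) and lower in 4 (27% of all). After centring these were 1 and 2 bins (8.29% and 11.7% of all), and without single-library fragments 0 and 0 (0.00195% and 0.0997% of all). The largest positive difference was 0.91 from 37750001 to 37800000 (2.54 against 1.63), followed by 0.48 from 36950001 to 37000000 (1.18 against 0.71) and 0.46 from 37550001 to 37600000 (2.91 against 2.45). After the bin in alpha with -2.07, the next lowest were -1.55 from 38050001 to 38100000 (-3.63 against -2.08) and -1.09 from 38000001 to 38050000 (-4.17 against -3.08). Without single-library fragments the 3 largest were 0.13, 0.06 and 0.15, and the 3 lowest 0.18, -0.11 and -0.51.

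**Figure D5:**
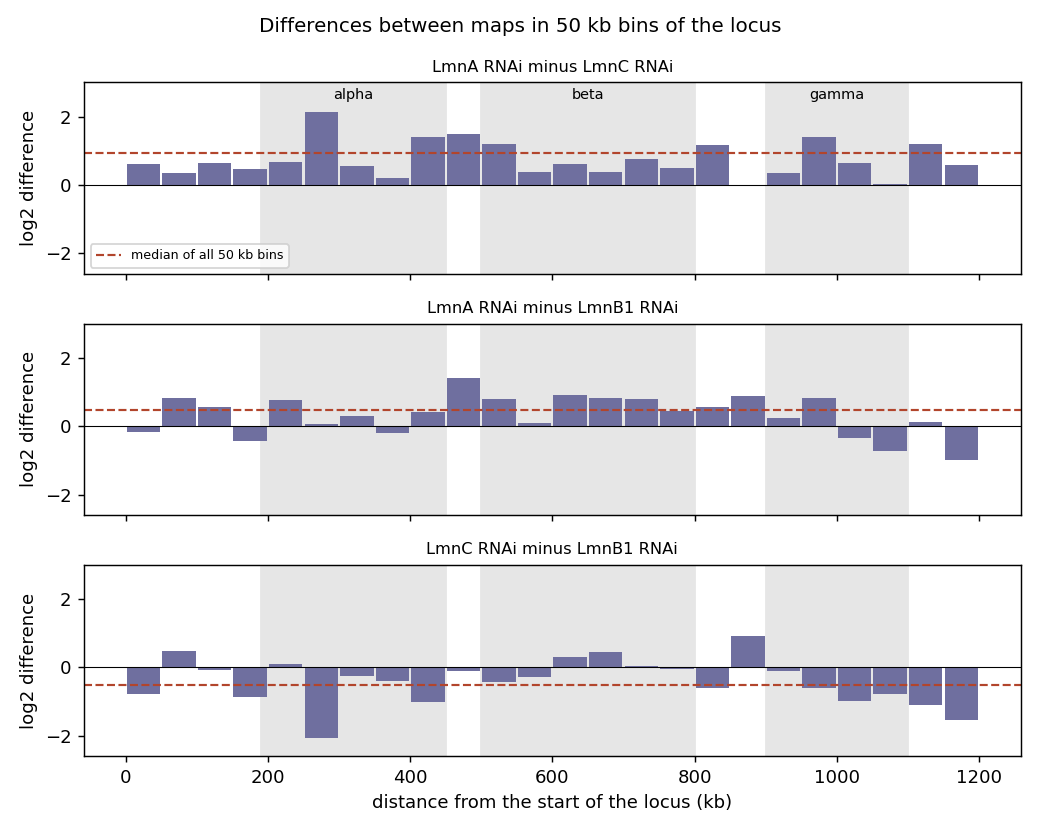
Difference in log2 ratio between maps in 24 bins of 50 kb (vertical axis) against distance from the start of the locus in kb (horizontal axis), 1 panel per pair of maps, with the median of all 51168 bins as a dashed line and the clusters shaded. Differences run from -0.02 to 2.13 for LmnA minus LmnC RNAi, from -0.98 to 1.40 for LmnA minus LmnB1 RNAi and from -2.07 to 0.91 for LmnC minus LmnB1 RNAi.

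The course of the signal along the locus was shared. Over its 60 bins of 20 kb, the maps correlated with Pearson r of 0.945 (LmnA and LmnC RNAi), 0.955 (LmnA and LmnB1 RNAi) and 0.929 (LmnC and LmnB1 RNAi), beside 0.884, 0.866 and 0.894 over all bins. These points are neighbours on 1 chromosome with the same fragments in each map, so r is a description.

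GATC sites were somewhat denser in the locus than around it. It held 280 fragments per 100 kb of fragment length, against 245 in the flanks, 248 in the rest of chromosome 18 and 253 over all chromosomes. The median fragment was 221 bp, against 279 bp in the flanks. Alpha, beta and gamma had 281, 269 and 292 fragments per 100 kb, and the first and second 100 kb of gamma had 278 and 306. Whether the density of sites bears on the signal was not tested. Fragments at the constant of their map, which stands for no reads or equal reads, made up 30.6%, 29.1% and 31.1% of the locus for LmnA, LmnC and LmnB1 RNAi, against 32.4%, 27.97% and 29.02% in the flanks.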

How the data were processed

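DamID was analysed in 3 maps of mouse embryonic fibroblasts from 6 libraries. The submitters' processing notes name Bowtie and mm9, without versions. For the ratio step, LAD caller and read filters, no method is given in the sources used here. Values deposited by the authors are log2 ratios, 1 per GATC fragment. From its steps, each value is log2 of fusion over Dam-only reads, 1e-05 added to both, plus a constant (-0.34 for LmnA RNAi, 0.21 for LmnC RNAi, -0.15 for LmnB1 RNAi). Values above 12 in size stand for 0 reads in 1 library, and reads recovered from them in the locus were whole within 0.02 in 100% of those up to 100 reads. With only ratios deposited, library depth is unknown. The deposited LAD lists give positions in bp. Coordinates are as the files give them, and bins count from 1.

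Means weight fragments by length, and bins needed at least 50% cover (Python 3.11.15, numpy 2.4.6, pandas 2.3.3, scipy 1.17.1). A difference between maps counted past 1 in 50 kb bins. Regions named were the segments, LADs and borders, the 3 highest and lowest 20 kb bins and the 3 largest and smallest differences per pair. The scripts were tested on simulated data. The members and lists were chosen with earlier results of these data known. Alternatives are given in the closing section.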

Additional observations from a re-analysis of the deposited data

How the results depend on the processing

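Each map rests on 1 pair of libraries, library depth is unknown, and the median single-library fragment of the locus held 1 or 2 reads, so small differences between maps cannot be judged. No paired analysis was possible because each group has 1 library. Of 402 recomputed values, 210 stayed within a set tolerance, 171 moved beyond it and 21 changed sign. The tolerance was the 95% interval from the SE over fragments for means and differences, 1.5 times for counts of bins and 5 percentage points for LAD shares. Alpha and beta stayed above 0 and gamma below 0 under every alternative run. LAD shares were recomputed only by fragment length and with LADs of at least 200 kb. Fragments covered 99.2% of the locus and each of its LADs was longer than 200 kb. Neither alternative could thus move the shares past 5 points, and LADs were not called anew. The sign of the differences between maps depended on scaling, and the cause was not tested. Values below are in the order LmnA, LmnC and LmnB1 RNAi unless named.

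Without single-library fragments, the locus averaged 0.27 (LmnA RNAi) and 0.12 (LmnB1 RNAi), alpha 0.65, 0.50 and 0.55, beta 1.15, 0.91 and 0.75, and gamma -1.07, -1.21 and -1.06. The locus then exceeded the flanks by 1.66, 1.58 and 1.21, and the rest of chromosome 18 by 0.34 (LmnC RNAi) and 0.16 (LmnB1 RNAi). With such fragments set to log2 of reads plus 1, the locus averaged 0.28 (LmnA RNAi) and 0.13 (LmnB1 RNAi), alpha 0.71, 0.54 and 0.62, beta 1.16, 0.94 and 0.79, and gamma -1.17, -1.26 and -1.11. The locus then exceeded the flanks by 1.69, 1.61 and 1.27, and the rest of chromosome 18 by 0.32 (LmnC RNAi) and 0.16 (LmnB1 RNAi). With fragments weighted equally, the locus averaged 1.71, 0.96 and 1.00, alpha 3.89, 2.58 and 3.24, beta 3.73, 3.23 and 2.78, and gamma -3.16, -3.59 and -3.76. The locus then exceeded the flanks by 4.88, 5.13 and 4.28, and the rest of chromosome 18 by 0.84 (LmnC RNAi). Without fragments at the constant it exceeded the flanks by 3.83, 3.75 and 3.09, and against flanks of 500 kb by 2.997 (LmnB1 RNAi).

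Centred on the median 100 kb bin, the locus averaged -0.34 (LmnA RNAi) and -0.0034 (LmnB1 RNAi), and the upstream end -0.49 (LmnA RNAi). For LmnA and LmnB1 RNAi, alpha was then 1.04 and 1.41, beta 1.12 and 1.15, and gamma -3.63 and -2.94. As alternatives chosen after seeing the data, gamma averaged -1.71, -2.21 and -1.72 without its lowest 20 kb bin, -0.54, -1.42 and -1.06 in its first 100 kb, and -4.09, -4.42 and -3.55 in its second.

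LmnA minus LmnC RNAi over the locus was 0.14 without single-library fragments, 0.15 with log2 of reads plus 1, 1.05 over odd-numbered and 0.43 over even-numbered fragments, -0.42 centred and -0.17 with quantile normalization. Centred, it was -0.14 in alpha, -0.52 in beta and -0.55 in gamma. LmnA minus LmnB1 RNAi over the locus was 0.71 with equal weights, -0.34 centred and -0.11 with quantile normalization. In alpha it was -0.032 over even-numbered fragments and -0.37 centred, and in beta -0.028 centred. In gamma it was 0.013 without fragments at the constant, 0.61 with equal weights and 0.21 over even-numbered fragments. LmnC minus LmnB1 RNAi over the locus was 0.012 without single-library fragments, -0.0068 with log2 of reads plus 1, -0.039 with equal weights, 0.076 centred and 0.059 with quantile normalization. It was -0.0030 in beta over even-numbered fragments and 0.18 in gamma with equal weights.

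Counts of bins past a difference of 1 also moved. LmnA RNAi was higher than LmnC RNAi in 2 bins of 100 kb, in 15 bins of 50 kb past 0.5, and in 0 without single-library fragments, 1 centred and 1 with quantile normalization. It was lower in 1 bin of 20 kb, 2 centred and 1 with quantile normalization. LmnA RNAi was higher than LmnB1 RNAi in 15 bins of 20 kb, 0 of 100 kb and 11 past 0.5, and in 0 without single-library fragments, 0 centred and 0 with quantile normalization. It was lower in 2 bins of 20 kb, 2 past 0.5 and 3 centred. LmnC RNAi was higher than LmnB1 RNAi in 3 bins of 20 kb, 1 past 0.5, 1 centred and 1 with quantile normalization. It was lower in 1 bin of 100 kb and 10 past 0.5, and in 0 without single-library fragments, 2 centred and 1 with quantile normalization.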
